A study of Rattus norvegicus with 9 samples.

Results

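The genes described here are 39 genes of cell cycle progression and proliferation: cyclins and their kinases, DNA licensing and nucleotide supply enzymes, mitotic regulators and inhibitors of cyclin-dependent kinases. Probes were taken by the gene name on the array, with the older names of Cdk1 counted, or by a RefSeq transcript of the gene. By this rule 37 of the 39 genes had a probe, 57 probes in all out of 41012 on the array. No probe of Mki67 or Mcm3 met the rule; 4 probes that name them only in their description are given apart. Of the 57 probes, 54 were tested, and each of the 37 genes was represented by at least 1 of them.

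Male Wistar rats were fed from the age of 2 months for 4 months, and RNA came from peripheral blood mononuclear cells (PBMC, mainly lymphocytes with some monocytes, separated from other blood on a Ficoll gradient) drawn in the fed state at 6 months. One group ate standard chow (control, 4 animals; the authors left out 1 more for its low RNA yield) and the other was offered a fat-rich cafeteria diet besides the chow (cafeteria, 5 animals), which makes rats obese. Each animal had 1 array, on which its RNA (Cy5) was read against a reference pool of RNA from all groups of the study (Cy3). All values are log2 ratios of animal over pool, so 0 is the level of the pool, and a difference is the mean of the cafeteria animals minus the mean of the control animals. Animals are called by diet and by the number in their label. In these mixed cells, fewer cells of a type and less RNA per cell cannot be told apart.

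A cell enters its cycle in G1, where D cyclins with Cdk4 and Cdk6 and then E cyclins with Cdk2 phosphorylate the retinoblastoma protein (Rb1) and so free E2F factors, which switch on the genes of DNA replication. Replication origins are licensed by the Mcm proteins, and cyclins A and B with Cdk1 carry the cell through G2 into mitosis, where Aurora and Polo kinases and the spindle checkpoint order the separation of chromosomes. Cdkn1a (p21), Cdkn1b (p27) and Cdkn2c (p18) inhibit the kinases; Cdkn1b is known for its high level in resting lymphocytes and its loss when they are stimulated to divide. Most circulating mononuclear cells rest outside the cycle.

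Between 58.8% and 66.7% of probes were well above background in Cy5 on each array. Log ratios of different arrays correlated at between -0.102 and 0.565 over the tested probes. No probe of the whole array passed an adjusted p of 0.05 between the diets in limma's moderated test (0 of 25808; lowest adjusted p 0.0888). An unadjusted p under 0.05 was reached by 1469 probes, 3.76% of those tested in the lower and 1.93% in the higher direction. As the label PBMC implies, genes that mark lymphocytes and monocytes were measurable: 13 of 14 listed for T cells, 8 of 10 for B cells and 9 of 10 for monocytes. Erythroid markers were measurable as well, and 8 of the 10 measured were higher in cafeteria animals at an unadjusted p under 0.05, and its median per array ran from -0.836 to -0.593 in control and from -0.535 to -0.0487 in cafeteria animals. Medians per array overlapped between diets for the other lists, although most had members mainly on one side. Of NK and cytotoxic markers 9 of 10 lay higher under the cafeteria diet, 3 of them at an unadjusted p under 0.05. With slides as a fixed block 6 of 10 did. That block compares diets only on the slide of control 1 and cafeteria 1 and the slide of control 13 and cafeteria 10, since the other slides held 1 diet each. All 8 B cell markers lay higher, but 3 of 8 did on the slide of control 1 and cafeteria 1. All 8 platelet markers lay lower, but 7 did with median centring or in the authors' table, 6 without control 4 and 5 with slides as a fixed block. All 13 T cell markers lay lower, but 6 did with median centring or in the authors' table, and 7 without cafeteria 13. The part of these cells in the differences of cell cycle genes was not tested.

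The transcripts of the cycle were measurable in these cells, and none differed between diets past the threshold. In each of the 37 genes the probe of highest mean signal was well above background on all 9 arrays, and none was saturated. No member passed the adjusted threshold, which 0% of all probes passed. One of the 54 member probes, the upstream probe of Cdkn1b, reached an unadjusted p under 0.05 (1.85%, against 5.69% of all probes). The same probe was the only one of them whose diet groups did not overlap (2.01% of all probes, 1.19% with the cafeteria animals lower). The probes of Mki67 and Mcm3 known only by description are outside these counts, and an Mki67 probe among them also met both. Over the 37 genes by their probe of highest mean signal, 18 lay higher and 19 lower under the cafeteria diet, with a median difference of -0.0182; the median over all 22099 genes and transcripts tested was 0.00827. The differences ran from -0.394 (Rrm2) to 0.318 (Birc5). For all 37 genes the 95% interval of the difference included 0 and lay within a 2-fold change in either direction. Across the 9 arrays the member probes had a median SD of 0.194, against 0.151 over all probes tested.

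**Figure D1:**
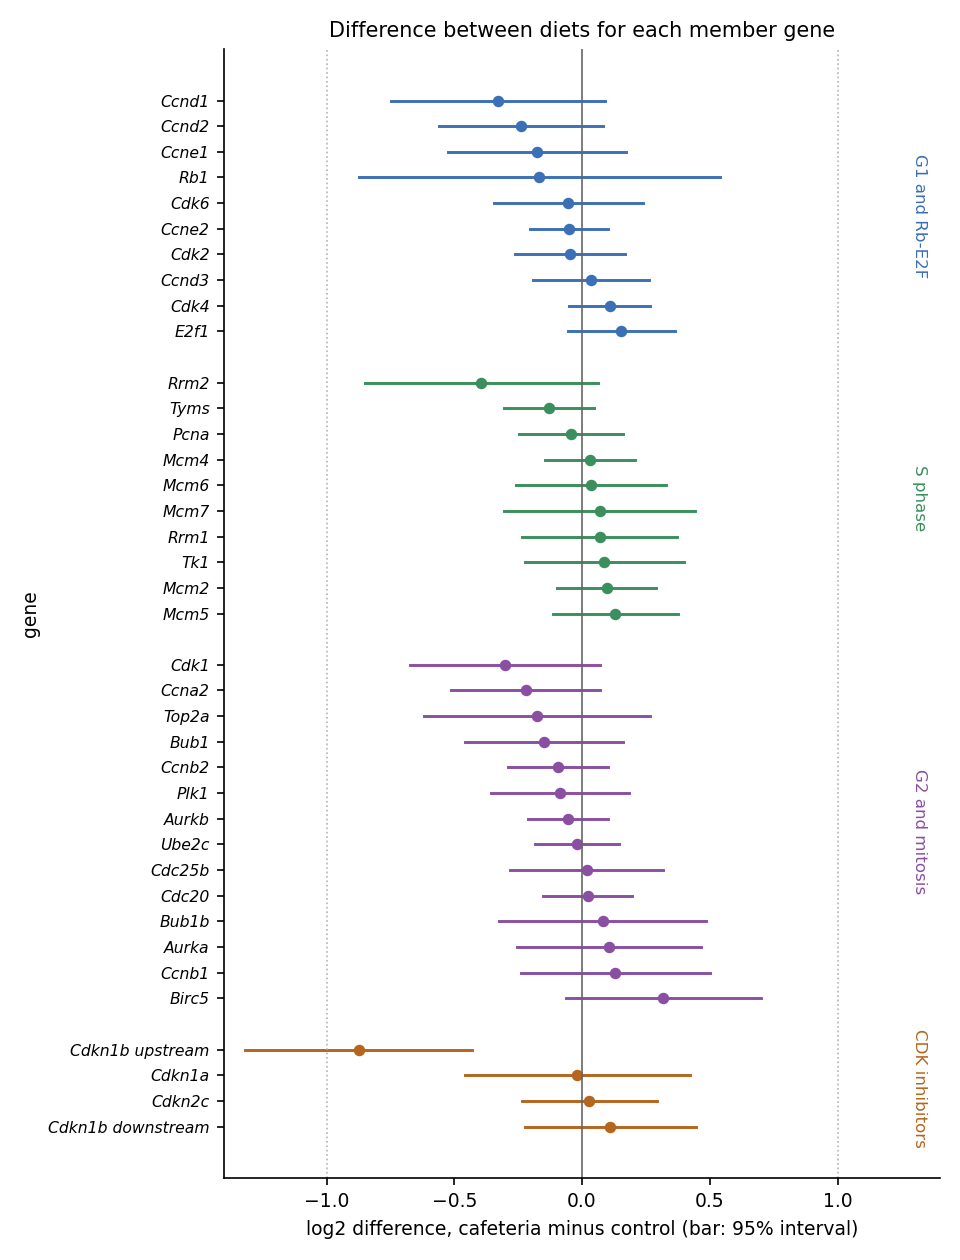
Difference between diets (log2, cafeteria minus control, horizontal axis) for each member gene by its probe of highest mean signal, and for the upstream probe of Cdkn1b; points are limma estimates over 4 control and 5 cafeteria animals, bars their 95% intervals, dotted lines a 2-fold change. Every interval includes 0 except that of the upstream Cdkn1b probe, which runs from -1.32 to -0.43.

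In the G1 group (3 D cyclins, 2 E cyclins, Cdk2, Cdk4, Cdk6, Rb1 and E2f1) the cafeteria diet had 3 of 10 genes higher and 7 lower, none at an unadjusted p under 0.05, and a median difference of -0.0525. With slides as a fixed block 6 lay higher and 4 lower (median 0.0119), and in the authors' table the split was 5 and 5 (median 0.0404). Without control 4 the median was -0.0183. Ccnd1, the D cyclin that growth factors induce in many tissues, gave 0.38, 0.65, 0.63 and -0.16 in control 1, 4, 7 and 13. In cafeteria 1, 4, 7, 10 and 13 it gave -0.16, -0.29, 0.20, 0.034 and 0.44. Control 4 and 7 were highest, but cafeteria 13 was above control 1 and control 13 lay among the lowest, so the groups overlapped: the difference was -0.33 (SE 0.19, adjusted p = 0.966), and its other probe gave -0.25 (SE 0.17). Without control 13 the Ccnd1 difference was -0.51 (adjusted p = 0.569), and between the arrays of the slide that held control 13 and cafeteria 10 it was 0.19.

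Ccnd2, the D cyclin prominent in lymphocytes, differed by -0.24 (SE 0.14). Ccnd3 differed by 0.035 (SE 0.10). The kinases that D cyclins activate differed by 0.11 (SE 0.071) for Cdk4 and by -0.053 (SE 0.13) for Cdk6. The E cyclins act at the border of G1 and S. Ccne1 gave -0.18 (SE 0.16), its second probe 0.041 (SE 0.088), and Ccne2 -0.052 (SE 0.069). Cdk2, the partner of the E cyclins, gave -0.049 (SE 0.097), and a second Cdk2 probe 0.14 (SE 0.082). E2f1, an activator of replication genes, was 0.15 higher (SE 0.094). None of these passed the test.

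Rb1, the pocket protein that holds E2F inactive, varied most among animals of all members by their probe of highest signal (SD 0.54 over the 9 arrays). It gave -0.26, 1.06, -0.43 and -0.065 in control 1, 4, 7 and 13, and -0.56, -0.31, -0.43, 0.36 and 0.49 in cafeteria 1, 4, 7, 10 and 13. One control animal, control 4, was thus far above the other controls, and cafeteria 10 and 13 were above the other cafeteria animals. A second Rb1 probe had the same animal highest, at 0.89. The diet difference was -0.17 (SE 0.32, adjusted p = 0.987) and turned to 0.16 (SE 0.24) without control 4. On control 4 the platelet markers were also highest, all 8 of 8, with a median of 1.27 against -0.986 to 0.217 on the other 8 arrays; the part of platelet RNA in the Rb1 values was not tested.

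Among S phase genes, 7 of 10 measured lay higher and 3 lower under the cafeteria diet, none at an unadjusted p under 0.05. The median difference was 0.0522. It was 0.172 with median centring and 0.187 in the authors' table, which holds 9 of these genes. The median of all probes was at 0.073 and 0.127 there. With slides as a fixed block 5 lay higher and 5 lower (median 0.00172). The split was also 5 and 5 with array weights (0.012) and with the mean of each gene's probes (0.012). With flagged spots kept it was 6 and 4 (0.0334). On the slide of control 13 and cafeteria 10, 2 lay higher and 8 lower (-0.0634). The 5 measured subunits of the Mcm replicative helicase gave Mcm2 0.096 (SE 0.087), Mcm4 0.031 (SE 0.080), Mcm5 0.13 (SE 0.11), Mcm6 0.035 (SE 0.13) and Mcm7 0.069 (SE 0.17). All 5 were above 0, but 4 of them were with the authors' table centred, 3 with array weights or with slides as a fixed block, and 1 on the slide of control 13 and cafeteria 10. The second Mcm4 probe was at -0.087 (SE 0.083). Mcm7 gave -0.035, -0.18, -0.33 and -0.050 in control 1, 4, 7 and 13. In cafeteria 1, 4, 7, 10 and 13 it gave 0.12, 0.10, -0.18, 0.23 and -0.67. Cafeteria 13 alone was well under the rest, and the same animal was lowest for Mcm4, Mcm6, Mcm7 and Tyms, 4 of the 10 genes, where 10.8% of all genes tested had it lowest. T cell markers were lowest there as well, for 9 of 13 genes (median -0.485, against -0.305 to 0.0706 on the other arrays); their part in the Mcm values was not tested. The longer list of related S phase genes ran the other way on cafeteria 13: it was the highest array for 10 of 32 genes and the lowest for 4, with the highest median of all arrays (0.117). Over the arrays left out the Mcm7 difference ran from -0.0076 (without cafeteria 10) to 0.22 (without cafeteria 13).

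Rrm2, the inducible small subunit of ribonucleotide reductase, which makes deoxynucleotides for replication, had the largest difference of the 37 genes by their probe of highest signal. It gave 0.78, -0.22, 0.34 and -0.088 in control 1, 4, 7 and 13, and -0.012, -0.64, -0.0033, -0.29 and -0.025 in cafeteria 1, 4, 7, 10 and 13. The groups overlapped, with control 1 far above and cafeteria 4 far under the rest. The difference was -0.39 (SE 0.21, adjusted p = 0.952) and moved to -0.20 without control 1 and to -0.28 without cafeteria 4. The other Rrm2 probe, detected on 7 arrays, gave -0.055 (SE 0.085). The large subunit Rrm1 differed by 0.069 (SE 0.14), and its other probes by -0.026 and -0.078. Tyms (thymidylate synthase) differed by -0.13 (SE 0.080), Pcna (the sliding clamp of DNA polymerase) by -0.044 (SE 0.092) and Tk1 (thymidine kinase) by 0.088 (SE 0.14). The Tk1 value comes from an expressed sequence tag that the array file places on chromosome 3, whereas RefSeq has Tk1 on chromosome 10, and its spot on cafeteria 13 was left out as an outlier; its identity is uncertain. Mcm3, known only through the description of 2 probes, differed by 0.17 (SE 0.095) and 0.18 (SE 0.14).

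Of the 14 genes of G2 and mitosis that were measured, 6 lay higher and 8 lower under the cafeteria diet, none at an unadjusted p under 0.05, with a median difference of -0.0377. Cyclin genes and their kinase gave differences of -0.22 (SE 0.13) for Ccna2, -0.094 (SE 0.088) for Ccnb2, 0.13 (SE 0.17) for Ccnb1 and -0.30 (SE 0.17, adjusted p = 0.96) for Cdk1, the mitotic kinase. Its activating phosphatase Cdc25b differed by 0.019 (SE 0.14). Among the mitotic kinases Aurka differed by 0.11 (SE 0.16), Aurkb by -0.056 (SE 0.070) and Plk1 by -0.088 (SE 0.12). A second Plk1 probe gave 0.019 (SE 0.096). The spindle checkpoint kinases gave -0.15 (SE 0.14) for Bub1 and 0.081 (SE 0.18) for Bub1b, and the ubiquitin ligase factors of mitotic exit 0.022 (SE 0.078) for Cdc20 and -0.019 (SE 0.074) for Ube2c. No gene of this group passed the test.

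Top2a, the topoisomerase that untangles sister chromatids, gave 0.28, -0.49, -0.30 and 0.40 in control 1, 4, 7 and 13. In cafeteria 1, 4, 7, 10 and 13 it gave 0.017, -0.65, -0.068, -0.085 and -0.24. Both groups spread widely, with cafeteria 4 lowest and control 13 highest, and the difference was -0.18 (SE 0.20, adjusted p = 0.983). It was -0.033 without control 13, -0.073 without control 1, -0.065 without cafeteria 4, -0.33 without control 4 and -0.27 without control 7. Birc5 (survivin), which belongs to the chromosomal passenger complex, gave -0.33, -0.082, 0.65 and 0.077 in control 1, 4, 7 and 13. In cafeteria 1, 4, 7, 10 and 13 it gave 0.57, 0.29, 0.26, 0.30 and 0.56. All 5 cafeteria animals were above 3 of the 4 control animals, while control 7 was above every cafeteria animal. The difference was 0.32 (SE 0.17, adjusted p = 0.957); without control 7 it was 0.51 (adjusted p = 0.56), without control 1 it was 0.18, and on the slide of control 1 and cafeteria 1 it was 0.90.

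The proliferation marker Mki67 could be read only from 2 probes that carry its name in their description. One gave 0.65, 0.034, 0.0050 and 0.30 in control 1, 4, 7 and 13 and -0.19, -0.074, -0.059, -0.079 and -0.021 in cafeteria 1, 4, 7, 10 and 13. On this probe the groups did not overlap, as in 2.01% of all probes (1.19% with the cafeteria animals lower), but control 4 and 7 lay close above the cafeteria animals. The difference was -0.33 (SE 0.12, adjusted p = 0.743). Its unadjusted limma p was 0.0229, where 5.69% of all probes were under 0.05. The other, of higher signal, had overlapping groups and a difference of -0.24 (SE 0.15, adjusted p = 0.975).

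Of the CDK inhibitors, Cdkn1b was read by 2 probes of the same RefSeq transcript that gave different results. In the build rn4 the array files place the upstream probe at chr4:171845435-171845494 and the downstream probe at chr4:171846350-171846409, both on the plus strand, 915 bases apart; which exon or untranslated region each lies in was not determined, since no annotation of that build was used. The upstream probe, with 1 spot on the array, gave 0.59, 0.46, 0.85 and 0.077 in control 1, 4, 7 and 13. In cafeteria 1, 4, 7, 10 and 13 it gave 0.049, -0.16, -0.26, -0.83 and -0.70. Every cafeteria animal was under every control animal, though cafeteria 1 and control 13 were close. The difference was -0.87 (SE 0.20), 1.83-fold lower in cafeteria animals, with an unadjusted limma p of 0.00131 and an adjusted p = 0.444. An exact two-sided permutation test over the 126 splits of the animals gave p = 0.0159. With groups that do not overlap this test can give only 0.00794 or 0.0159, so it adds nothing to the absence of overlap. It was not adjusted for the number of probes.

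The downstream probe, with 10 spots, gave 0.14, -0.26, 0.48 and -0.16 in control 1, 4, 7 and 13. In cafeteria 1, 4, 7, 10 and 13 it gave 0.13, 0.32, 0.23, -0.13 and 0.25. The groups overlapped fully, and the difference was 0.11 (SE 0.15, adjusted p = 0.983; exact permutation p = 0.556). It ran from 0.0083 (without control 4) to 0.25 (without control 7) over the arrays left out. Its spots varied little within an array (SD of spots 0.0251 to 0.11), so the spread between animals was larger than the spread between spots. Taken as the upstream minus the downstream log ratio of the same array, the mean was 0.444 ± 0.203 (SD, 4 control animals) and -0.541 ± 0.324 (SD, 5 cafeteria animals). The value was above 0 in 4 of 4 control animals and under 0 in 5 of 5 cafeteria animals, a difference of -0.985 (exact permutation p = 0.0159). Here too the p follows from the groups not overlapping.

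**Figure D2:**
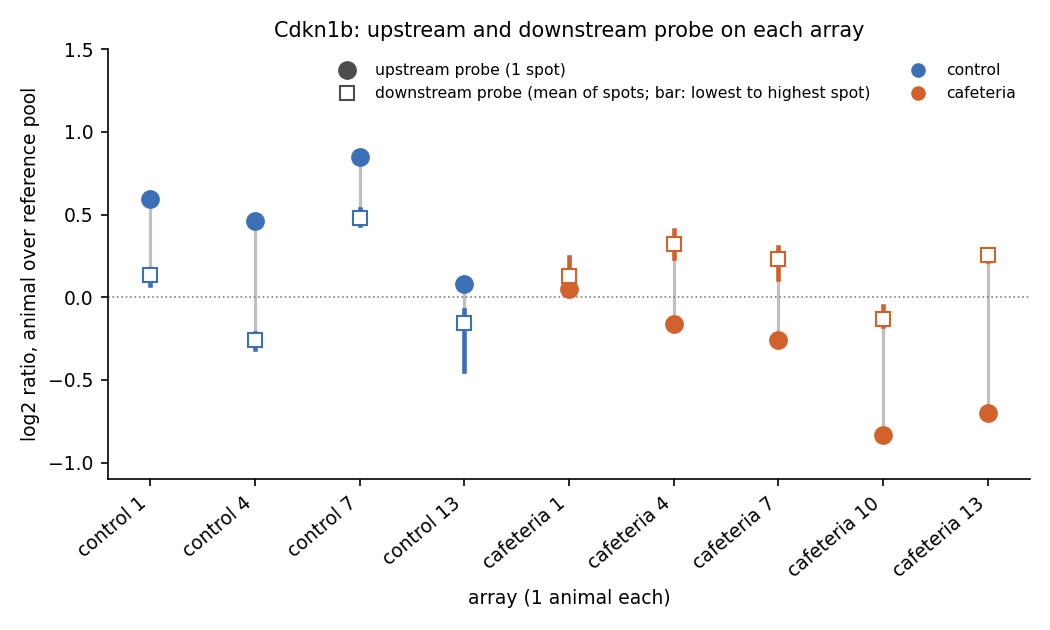
Log2 ratio of animal over reference pool (vertical axis) for the 2 Cdkn1b probes on each of the 9 arrays (horizontal axis): filled circles, upstream probe; open squares, downstream probe, with a bar from its lowest to its highest spot. The upstream probe lies above the downstream probe in all 4 control animals and under it in all 5 cafeteria animals.

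A disagreement of this size between probes of a gene was rare on these arrays. Of 3034 genes or transcripts with at least 2 tested probes, 7 (0.231%), Cdkn1b itself included, had diet differences at least this far apart. The median distance was 0.0912. These distances were not scaled by how much a probe varies, so the share does not allow for noise. The SD over the 9 arrays was 0.566 for the upstream Cdkn1b probe, against a median of 0.151 over all probes tested. Among the 16 members with several tested probes, 10 had all differences of the same sign, and outside Cdkn1b the widest distance was 0.339 (Rrm2). Over 1681 other transcripts with an upstream and a downstream probe 300 to 20000 bases apart, the median upstream minus downstream value of an array ran from -0.0845 to 0.0142 in control and from -0.0928 to -0.00125 in cafeteria animals (difference -0.02, exact permutation p = 0.484), a measure chosen after the Cdkn1b values were seen. The upstream difference was -0.54 on the slide of control 1 and cafeteria 1 and -0.91 on that of control 13 and cafeteria 10. Since the groups of the upstream probe do not overlap, any such pair is negative, so these signs add nothing. The groups of that probe overlapped with the scanner software's log ratios, with median centring, with Cy5 alone and in the authors' table, where the difference stayed between -0.90 and -0.75.

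Cdkn1a, the inhibitor known for arresting cells after DNA damage, was read by 10 spots of 1 probe, since its other probe was not well above background on any array. It gave -0.38, -0.46, -0.20 and -0.54 in control 1, 4, 7 and 13, and -1.05, -0.42, -0.57, 0.12 and -0.15 in cafeteria 1, 4, 7, 10 and 13. The cafeteria animals held both the lowest and the highest value, and the difference was -0.018 (SE 0.20, adjusted p = 0.997). Cdkn2c, an inhibitor of Cdk4 and Cdk6, differed by 0.029 (SE 0.12).

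**Figure D3:**
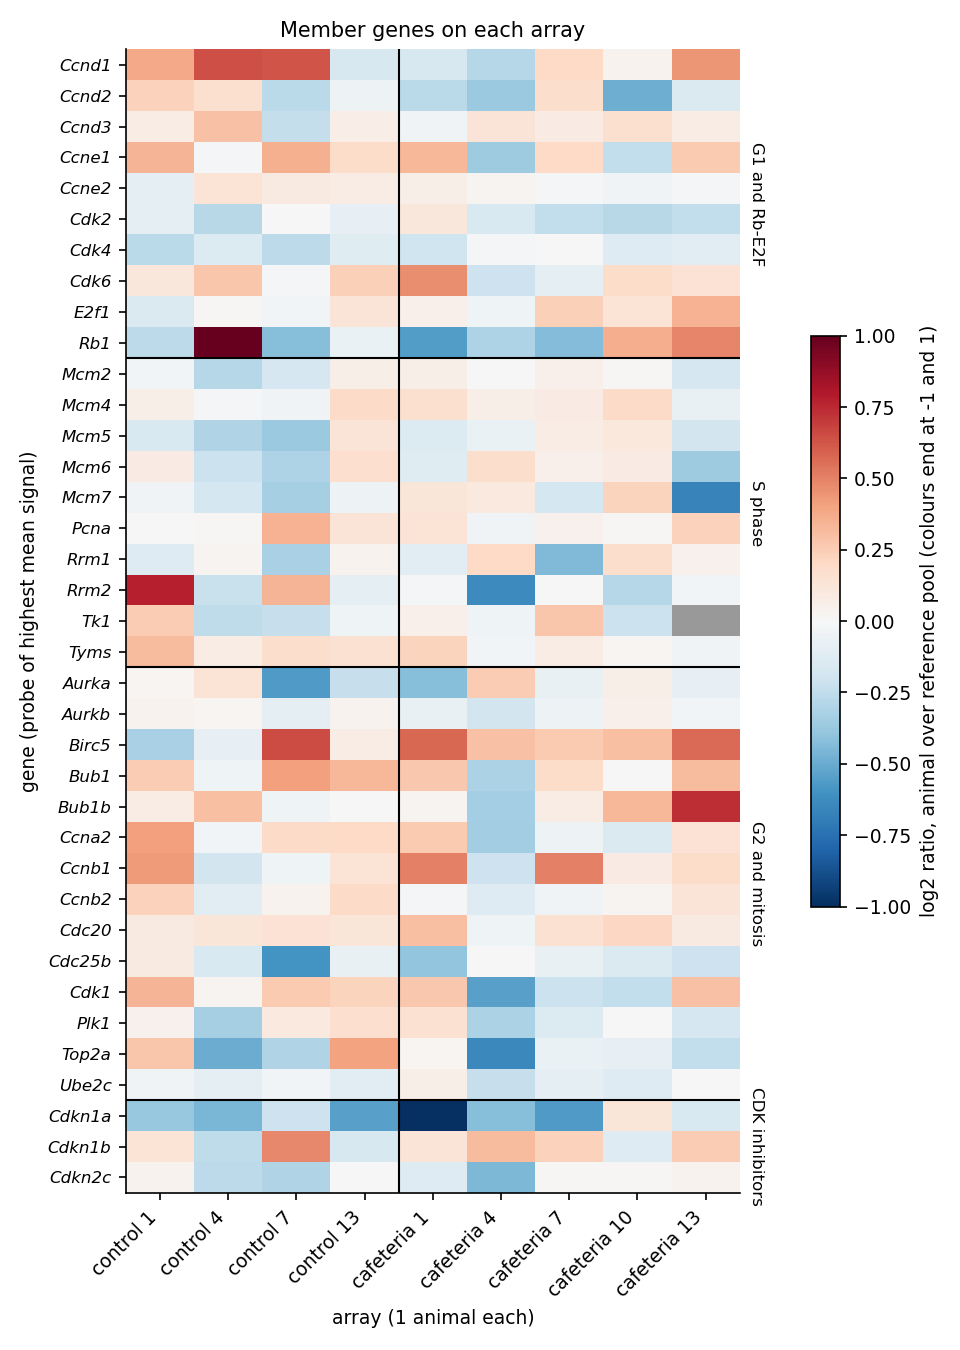
Log2 ratio of animal over reference pool (colour; the scale ends at -1 and 1) for the 37 measured member genes (rows, by phase, each by its probe of highest mean signal) on the 9 arrays (columns; the vertical line parts control from cafeteria). Cafeteria 4 is the lowest array for 10 of the 14 G2 and mitosis genes, though not for Aurka, Birc5, Cdc25b and Plk1, Rb1 is highest on control 4, and the grey cell is the Tk1 spot that was left out.

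The median size of the diet difference over the 54 member probes was 0.0911, under their median SD between arrays of 0.194, and some arrays stood apart for much of a phase group. Cafeteria 4 was the lowest array for 10 of the 14 G2 and mitosis genes, against 8.56% of all genes tested. These 10 are Aurkb, Bub1, Bub1b, Ccna2, Ccnb1, Ccnb2, Cdc20, Cdk1, Top2a and Ube2c. The median of the group on cafeteria 4 was -0.216; on the other arrays it lay between -0.061 (control 4) and 0.129 (control 13). In the longer list of related G2 and mitosis genes cafeteria 4 was again the lowest array for 15 of 39 genes, although the list's median there (-0.0431) was inside the range of the controls. The G1 median was lowest on that array too (-0.18), while its S phase median (-0.0171) was in the middle. Neutrophil markers were highest on cafeteria 4 for 4 of the 6 measured (median 0.443, against -0.561 to 0.16 on the other arrays). The erythroid median there (-0.0487) was close to those of cafeteria 13 (-0.0702) and cafeteria 1 (-0.0749). The part of either cell type in these values was not tested. Without cafeteria 4 the median diet difference of the G2 and mitosis genes was -0.0229.

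**Figure D4:**
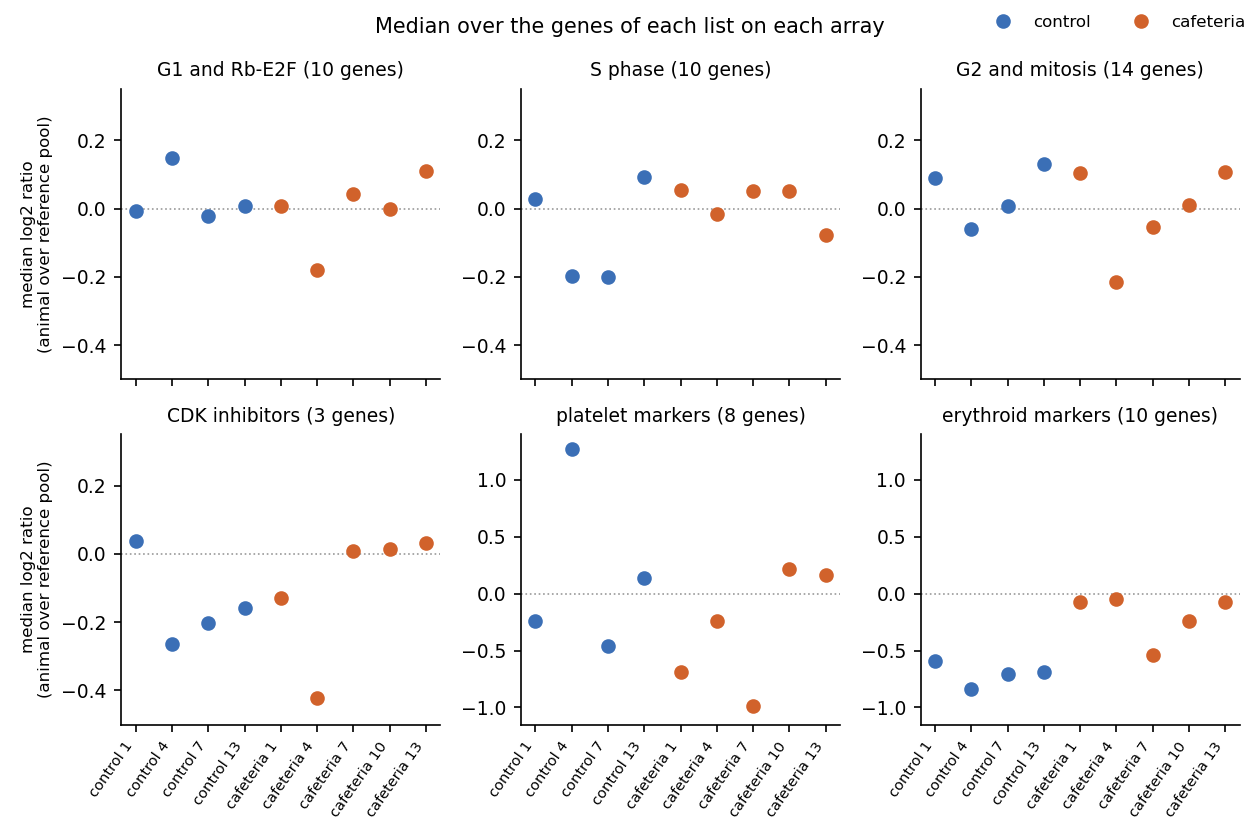
Median log2 ratio over the genes of each phase group and of the platelet and erythroid marker lists (vertical axes; the marker panels have a wider scale) on each array (horizontal axes). The diets overlap in all 4 phase groups; the platelet list peaks on control 4 at 1.27, and the erythroid list separates the diets.

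No phase group separated the diets. G1 medians per array ran from -0.0215 to 0.149 in control and from -0.18 to 0.11 in cafeteria animals. S phase medians ran from -0.201 to 0.0913 and from -0.0778 to 0.0554, and G2 and mitosis medians from -0.061 to 0.129 and from -0.216 to 0.107. The 3 inhibitors, with Cdkn1b by its downstream probe, had medians of -0.264 to 0.0381 and -0.423 to 0.0322.

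Other genes of the same processes were read from longer lists. Of 28 related G1 and checkpoint genes measured, none passed the adjusted threshold, and 1 was higher and 2 lower in cafeteria animals at an unadjusted p under 0.05 (5.28% of all genes), with a median difference of -0.052. The higher one was Wee1, the kinase that restrains Cdk1 (0.19, SE 0.066, adjusted p = 0.682). The lower ones were Cdkn1c, the p57 inhibitor (-0.39, SE 0.14, adjusted p = 0.694), and Cdkn3, a phosphatase of CDKs (-0.35, SE 0.15, adjusted p = 0.849). The other probes of Wee1 gave -0.016 and 0.099, whereas 3 further Cdkn1c probes were all negative (-0.20 to -0.16). Of 32 related S phase genes the only one at an unadjusted p under 0.05 was Lig1, the replicative DNA ligase (-0.19, SE 0.084, adjusted p = 0.874). Of 39 related G2 and mitosis genes it was Cdc27, a subunit of the anaphase promoting complex (-0.33, SE 0.13, adjusted p = 0.814), whose other probe gave 0.0029.

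Sequences next to the start of these genes were searched for known motifs; the choice of genes did not use them. RefSeq promoters of the build GRCr8, cut to the 250 bases before the start, were given for 29 of the 39 members. On both strands 4 motifs were searched: TTTGAA (the CHR element of G2 and mitosis genes), CCAAT (the box read by NF-Y), TTTNNCGC (E2F) and GGGCGG (the GC box). Some of these can overlap one another. The E2F letters were present in 5 of 9 S phase promoters (Mcm2, Mcm5, Mcm6, Mcm7 and Tyms), 2 of 12 G2 and mitosis promoters (Cdk1 and Plk1) and 4.35% of the promoters of all 27457 genes. TTTGAA was present in 6 of 12 G2 and mitosis promoters (Birc5, Ccnb2, Cdc20, Cdk1, Mki67 and Top2a), 1 of 9 S phase promoters (Mcm2) and 16% of all. CCAAT was found in 9 of 12, 6 of 9 and 34.3%, and the GC box in 8 of 12, 7 of 9 and 32.4%, in that order. In the G1 group the E2F letters and TTTGAA were in 0 of 5 promoters, CCAAT in 2 of 5 and the GC box in 5 of 5. In the inhibitors the E2F letters and TTTGAA were in 0 of 3, CCAAT in 1 of 3 and the GC box in 2 of 3. The CHR element is named for G2 and mitosis genes, and E2F factors act on replication genes, so their counts there are not independent findings. The member promoters are richer in G and C (median 58.8%) than all promoters (52%), which bears on the GC rich motifs.

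Shown are the 250 bases before the start, written 5′ to 3′ along the gene with matches in capitals. Cdkn1b, whose probes disagreed, has its window at chr4:169491254-169491503 (plus strand). Rb1, which varied most among animals of all members by their probe of highest signal, has it at chr15:54911858-54912107 (minus strand). Cdk1, the member whose window holds all 4 motifs, has it at chr20:19265043-19265292 (plus strand).
Cdkn1b: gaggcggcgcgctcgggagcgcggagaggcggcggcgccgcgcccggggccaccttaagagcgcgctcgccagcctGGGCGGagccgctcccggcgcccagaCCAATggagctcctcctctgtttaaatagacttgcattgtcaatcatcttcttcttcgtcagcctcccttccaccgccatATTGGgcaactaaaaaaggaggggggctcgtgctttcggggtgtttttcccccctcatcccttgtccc
Rb1: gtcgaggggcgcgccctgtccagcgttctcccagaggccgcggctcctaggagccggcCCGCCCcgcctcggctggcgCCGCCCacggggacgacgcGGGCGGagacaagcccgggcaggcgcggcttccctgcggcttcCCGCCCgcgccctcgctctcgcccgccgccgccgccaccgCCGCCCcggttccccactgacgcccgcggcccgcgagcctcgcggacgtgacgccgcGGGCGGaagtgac
Cdk1: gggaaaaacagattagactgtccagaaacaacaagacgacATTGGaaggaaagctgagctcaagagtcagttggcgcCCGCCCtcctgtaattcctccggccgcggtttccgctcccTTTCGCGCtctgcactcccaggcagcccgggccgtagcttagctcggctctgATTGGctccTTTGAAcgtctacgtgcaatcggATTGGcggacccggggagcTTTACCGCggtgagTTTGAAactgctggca
The Cdkn1b window has a GC box beginning 174 bases before the start and CCAAT boxes at 148 and 68 bases. That of Rb1 has 6 GC boxes and none of the other motifs. In Cdk1 the CHR letters begin 72 and 16 bases, and the E2F letters 133 and 30 bases, before the start. A match is a description of the letters, not a site shown to be bound.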

How the data were processed

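Each array gave deposited scanner intensities (per the file headers, Agilent Feature Extraction 9.5.1.1): mean and local background signals in Cy5 (animal) and Cy3 (pool), and the software's log10 ratio. The authors' table of processed values was read as log2 of Cy5 signal, without centring, since its values rank as Cy5 does (rank correlation 0.993 to 0.999 per array, 0.0419 to 0.142 with the log ratio); its scale, normalization and direction are not stated in the sources used here, so it served as an alternative.

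With limma 3.58.1 in R 4.3.3, backgrounds were corrected by normexp (offset 50), log2 ratios were normalized within arrays by loess with control spots at weight 0, flagged spots were left out and replicate spots averaged. Local backgrounds flagged as outliers by the scanner software were first replaced by the array's median background of that dye: on control 4 and cafeteria 4 some reached 65387 and 65389 and pulled the ratios of the whole array towards 0 (median size 0.0076 and 0.0111, against 0.108 and 0.0984 after replacement). Probes well above background in Cy5 on at least 4 arrays were tested, cafeteria minus control, with Benjamini-Hochberg adjustment over 25808 probes and a threshold of 0.05. Adjusted p-values in the text are from this fit. Intervals are 95%. The fit was tested on simulated data. Dyes were not swapped, so a dye effect of a probe is shared by all arrays and cancels in the differences between diets. The number of arrays limits the precision.

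A gene is given by its probe of highest mean signal, and Cdkn1b by every probe. Every member is named. Values on each array are given for members at an unadjusted p under 0.05 or without overlap, for Cdkn1b, and for the 2 of largest SD in each phase group. Of the related lists, up to 4 genes at an unadjusted p under 0.05 are named; 1 gene of the related G1 and checkpoint list is not reported here and is left out of its counts. The Cdk1 promoter and the Mki67 values were added outside this rule. The members and lists were chosen with earlier results of these data known. Replicate numbers come from the labels and were not taken to pair animals. RefSeq names matched 19436 of 41012 probes (47.4%).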

Additional observations from a re-analysis of the deposited data

Results flagged for a closer look

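Of 38 sets of values (a gene or phase group within a diet), 1 held an animal flagged by Dixon's ratio, its gap to the nearest animal over the range of the group. By chance about 1 in 20 is flagged. The Rb1, Rrm2 and Mcm7 values described above as far from or well under the rest were not flagged. The flagged value was the median of the G1 genes on control 4, at 0.149 (ratio 0.837, limit 0.829), while the other 3 control animals lay between -0.0215 and 0.00637. The same array was highest for 4 of the 10 G1 genes, against 13.8% of all genes tested, and for all 8 platelet markers. The part of platelet RNA in this value was not tested.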

How the results depend on the processing

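No member passed the adjusted threshold in any of the 25 alternatives with a test. The alternative with slides as a fixed block compares diets only within slides 3 and 5, so it is not separate from the values within each of these slides. Among all probes 2 passed without control 1, without control 13 and with local backgrounds as given (an alternative chosen after seeing the data), and none otherwise, a range of 0 to 2 over the arrays left out. Where a value moved, the cause was not tested. Members at an unadjusted p under 0.05 (1 as reported) numbered 5 with median centring and 4 with Cy5 alone or the authors' table. They numbered 3 with slides as a fixed block or array weights and 2 with the scanner software's ratio or the centred authors' table. With an array left out they numbered 1 to 4. Probes of the whole array at an unadjusted p under 0.05 changed too. They ran from 817 (slides as a fixed block) to 2908 (median centring), against 1469 (5.69%) as reported. The member counts are thus not a result about the members. Members without overlap (1 as reported, where 2.01% of all probes had none) numbered 1 to 2 with an array left out. They numbered 0 with the scanner's ratio, median centring, Cy5 alone, either form of the authors' table and the mean of a gene's probes. Over all probes, the share without overlap was not counted for the alternatives. The median of all probes was 0.127 in the authors' table (76.5% higher) and 0.073 with median centring (66.7% higher), against 0.00768 (52.8%).

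Some median differences changed by more than the SD of the group's array medians within diets. For S phase these were 0.172 with median centring, 0.187 in the authors' table (9 genes) and -0.0634 within slide 5 (control 13 and cafeteria 10). For G2 and mitosis it was 0.0816 in the authors' table, and for the inhibitors -0.166 within slide 3 (control 1 and cafeteria 1). Smaller changes turned the sign for G1 (0.0119 with slides as a fixed block, 0.0332 within slide 3 and 0.0404 in the authors' table). They also turned it for G2 and mitosis (0.0286 with median centring) and for the inhibitors in several alternatives (lowest -0.0182, with the mean of a gene's probes). Signs turned for the downstream Cdkn1b probe (-0.010 within slide 3, -0.38 as the mean of both probes), Rb1 (0.064 with slides as a fixed block, 0.43 within slide 5, 0.16 without control 4, and -0.33 to 0.16 over the arrays left out), Ccnd1 (0.19 within slide 5), Mcm7 (-0.0076 with the replicate block and without cafeteria 10, and up to 0.22 without other arrays) and Cdkn1a (0.035 with median centring, 0.038 in the authors' table, 0.66 within slide 5, 0.051 with array weights, 0.046 without control 7, 0.14 without cafeteria 1, 0.020 without cafeteria 7, and -0.15 to 0.14 over the arrays left out). The sign also turned for Cdkn1c (0.11 within slide 3). The upstream Cdkn1b difference was negative in every alternative run, from -1.01 to -0.54 (adjusted p 0.215 to 1). Within slides, with slides as a fixed block and with arrays left out, that sign follows from the groups not overlapping.

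Same-numbered animals did not deviate together (r -0.0584, 0.0326, 0.131 and -0.175), so the numbers were not used as pairs. With the replicate block 2 members (Cdkn1b and Rrm2) were at an unadjusted p under 0.05. Like the other member counts of the alternatives, this is not a result about the members.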
